A study of Mus musculus with 32 samples.

Results

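Mouse 2-cell embryos carry a brief set of transcripts that are lower in the zygote, high just after the first cleavage and lower again by the late 2-cell stage. The 100 genes described here were taken by one rule from 6565 candidates, which were the protein-coding genes with a mean of at least 5 FPKM (fragments scaled to transcript length and library size, a level per length) in both early 2-cell DMSO libraries, the Zscan4, Usp17l, Tdpoz, Obox, Pramel and Pramef symbols left out. Genes were ordered by their early 2-cell DMSO mean plus 1, divided by the larger of the zygote and late 2-cell DMSO means plus 1. The stage pattern in those 6 DMSO libraries is therefore the choice and not a result.

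Total RNA-seq was available for 16 libraries in 8 groups of 2, all from wild-type B6D2F1/J × B6D2F1/J embryos made by in vitro fertilisation with gametes of mice aged 6 to 8 weeks. A-485, a catalytic inhibitor of the histone acetyltransferases CBP and p300, was given at 10 µM from 4 to 20 h post insemination (hpi) and compared with DMSO at 3 stages, the zygote, the early 2-cell and the late 2-cell embryo, the last collected after the drug had been washed off. Trichostatin A (TSA), a histone deacetylase inhibitor, was given at 50 nM from 8 to 28 hpi and compared with its own DMSO group at the late 2-cell stage. ATAC-seq peak lists, each pooled from its replicates, covered the late 1-cell and the early 2-cell stage, each with DMSO or A-485. Zygotes and late 1-cell embryos come before the first cleavage, so their A-485 exposure may have been shorter than the full window. Nothing in the labels says that the libraries of a group came from separate cultures, so the p-values measure the spread between these libraries only, and embryos were pooled, so fewer expressing cells and less RNA per cell cannot be told apart.

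Zygotic genome activation in the mouse comes in a minor wave, in the late zygote and early 2-cell embryo, and a major wave in the late 2-cell embryo. The minor wave includes young multicopy genes, among them those shared with 2-cell-like embryonic stem cells and bound by the homeodomain factor Dux. Acetylation of H3K27 by CBP and p300 marks active promoters and enhancers, and histone deacetylases remove it.

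The libraries held 13206163 to 32585987 summed counts. Mitochondrially encoded genes took 4.34 to 5.00% of counts in zygotes, 10.5 to 12.5% in early 2-cell embryos and late 2-cell DMSO embryos, 15.5 to 16.3% with TSA and 19.5 to 20.7% in late A-485 embryos. Oocyte markers were high in all libraries, with a summed level of 5920 to 6355 FPKM in zygotes and 1817 to 2570.1 FPKM in the late 2-cell groups. Summed markers of late 2-cell to 4-cell embryos ran from 368 to 633 FPKM, of sperm from 67.2 to 154 FPKM and of cumulus cells from 15.9 to 63.4 FPKM. Erythroid markers summed to 45.6 and 48.0 FPKM with TSA against 1.11 and 1.55 FPKM in its DMSO group, with 3 of the 9, Hbb-bs and Hbb-bt among them, at 0 in both TSA libraries. Fibroblast markers summed to 18.2 and 22.9 FPKM with TSA against 2.92 and 4.20 FPKM, and to 20.98 and 26.3 FPKM in late A-485 embryos against 2.05 and 2.49 FPKM, with Dcn and Lum, 2 of the 10, at 0 in every one of those treated libraries. No member is on any of these marker lists except Sox2, on the late 2-cell to 4-cell list, and the part of the other cell types in the results was not tested.

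The genes of the set fell into a few recognisable groups. Much of it was made of clustered gene copies: 13 members lay within chr12:87514316-88324026 (GRCm38), 5 within chr10:104142987-104196522, 6 within chr5:94302519-95111158, 4 within chr1:151182537-151211072 and 3 within chr4:73401032-73876266. Of these, 7 genes on chromosome 12 had products resembling eukaryotic translation initiation factor 1A (Gm21319, Gm4027, Gm2022, BB287469, Gm5662, Gm8300 and Gm21936), and the 5 on chromosome 10 resembled RNA and export factor-binding protein 2. The other groups were the 5 Tcl1b genes at chr12:105146014-105206993, relatives of the AKT coactivator Tcl1, and 8 transcription regulators of later development, among them Hey1, Hey2, Sox2, Id2, Dbx1 and Pax6. Members were compact, with at most 2 exons in 36% against 5.58% of 6599 expressed coding genes, and a median span of 4.18 kb against 28.3 kb. Because copies share sequence, RSEM's posterior SD exceeded 10% of the count in 18 members, whose levels are uncertain, and Gm4301 and Gm4312 had the same values in every library.

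The promoter sequences of the copies show how alike they are and which letters recur. RefSeq promoters (GRCm38.p6, the 250 bases before the start site) matched 64 members, and the palindrome-like core bound by Dux, GATTNAATC, occurred on either strand in 7 of them (10.9%) against 0.247% of 32851 promoters and 0.236% of the 6779 of expressed coding genes. The 5 copies on chromosome 10 accounted for 5 of the 7 and were 99.6 to 100% identical to each other over the 250 bases, so they are one sequence rather than 5 observations. The other holders were AF067061 and Gm13043, whose windows shared 18.4% and 29.2% of bases with that of Gm21312. The 3 distinct sequences are printed 5′ to 3′ on the gene's strand, 100 bases each, with the Dux core in capitals, from chr10:104176833-104176932, chr13:120262925-120263024 and chr4:143511162-143511261, all on the plus strand.
Gm21312: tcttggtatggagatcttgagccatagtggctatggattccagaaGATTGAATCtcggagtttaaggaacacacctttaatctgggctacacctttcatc
AF067061: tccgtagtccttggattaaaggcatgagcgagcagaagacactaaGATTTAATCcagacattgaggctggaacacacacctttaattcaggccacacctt
Gm13043: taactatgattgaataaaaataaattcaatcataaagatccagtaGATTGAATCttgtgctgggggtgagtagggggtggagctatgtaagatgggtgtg

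A second short word, GGATTA, which homeodomain proteins of the Obox and Otx type bind, was found in 14 of the 64 (21.9%) against 6.25% of all promoters and 5.22% of coding ones, and in 11 of the 24 matched members with a zygote DMSO mean under 1 FPKM. It can overlap the Dux core by a few bases. The 14 include the 5 near-identical copies on chromosome 10 and the chromosome 12 copies Gm21319, Gm4027 and BB287469. Neither the 14 nor the 11 are therefore that many separate observations. The zinc finger gene Zfp352 (chr4:90218820-90225702, plus strand), long used as a marker of the 2-cell embryo, held 9 copies in a tandem repeat, and its promoter and that of Cks2 are printed as those of the most abundant members with an early DMSO ATAC-seq peak whose window holds no annotated exon. The cell cycle gene Cks2 (chr13:51645232-51650660, plus strand), the most abundant member, had instead 2 CCAAT boxes and 3 GC boxes (GGGCGG, the Sp and Klf word). Capitals mark every matched word on either strand in chr4:90218570-90218819 and chr13:51644982-51645231.
Zfp352: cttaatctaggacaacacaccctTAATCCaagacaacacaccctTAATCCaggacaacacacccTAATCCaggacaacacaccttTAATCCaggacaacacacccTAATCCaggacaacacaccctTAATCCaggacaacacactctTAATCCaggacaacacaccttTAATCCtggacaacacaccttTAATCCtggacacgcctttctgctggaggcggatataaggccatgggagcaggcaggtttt
Cks2: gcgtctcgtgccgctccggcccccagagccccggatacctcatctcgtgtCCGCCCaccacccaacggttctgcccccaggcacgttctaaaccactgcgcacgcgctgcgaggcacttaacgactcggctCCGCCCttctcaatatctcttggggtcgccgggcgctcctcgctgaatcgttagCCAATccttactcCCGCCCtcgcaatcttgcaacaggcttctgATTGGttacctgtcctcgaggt

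The other words are given against all promoters and then against those of expressed coding genes. CCAAT was in 50% of matched members against 33.9 and 36.9%, and GGGCGG in 39.1% against 32.7 and 59.3%, so that the latter lay above one background and under the other. TATAAA was in 15.6% against 12.4 and 6.43%, and in 29.2% of the 24 low-zygote members. AAGGTCA, a nuclear receptor word, was in 6.25% against 4.08 and 2.51%, and TGACGTCA, the CRE, in none of the 64 windows against 1.55 and 2.63%. A match describes letters only.

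The stage pattern divided the members by their zygote level. Gm11758 had the highest ratio, 15.3, with 19.6 and 43.2 FPKM in the early 2-cell DMSO libraries, but its reads are largely shared with copies. The ratio at rank 50 was 2.32 (Pstk), the last members inside the limit were Mthfs (1.85), Gm11239 (1.84) and Ptbp3 (1.84), and the first genes outside it were Med30 (1.84), Prob1 (1.83) and Ahsa1 (1.83), so the limit falls on a continuum. For 46 members the zygote DMSO mean was under 1 FPKM, and for the other 54 a transcript was already present in the zygote. The median ratio of early to zygote DMSO means, each plus 1, was 16.4 for the 46 and 2.265 for the 54. Summed over all genes, FPKM was 8.00e+05 and 8.12e+05 in zygote DMSO against 1.28e+06 and 1.27e+06 in early 2-cell DMSO. The rule did not remove this offset, which weighs most on the smaller ratios of the 54. The plot of all members by library shows both classes.

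**Figure D1:**
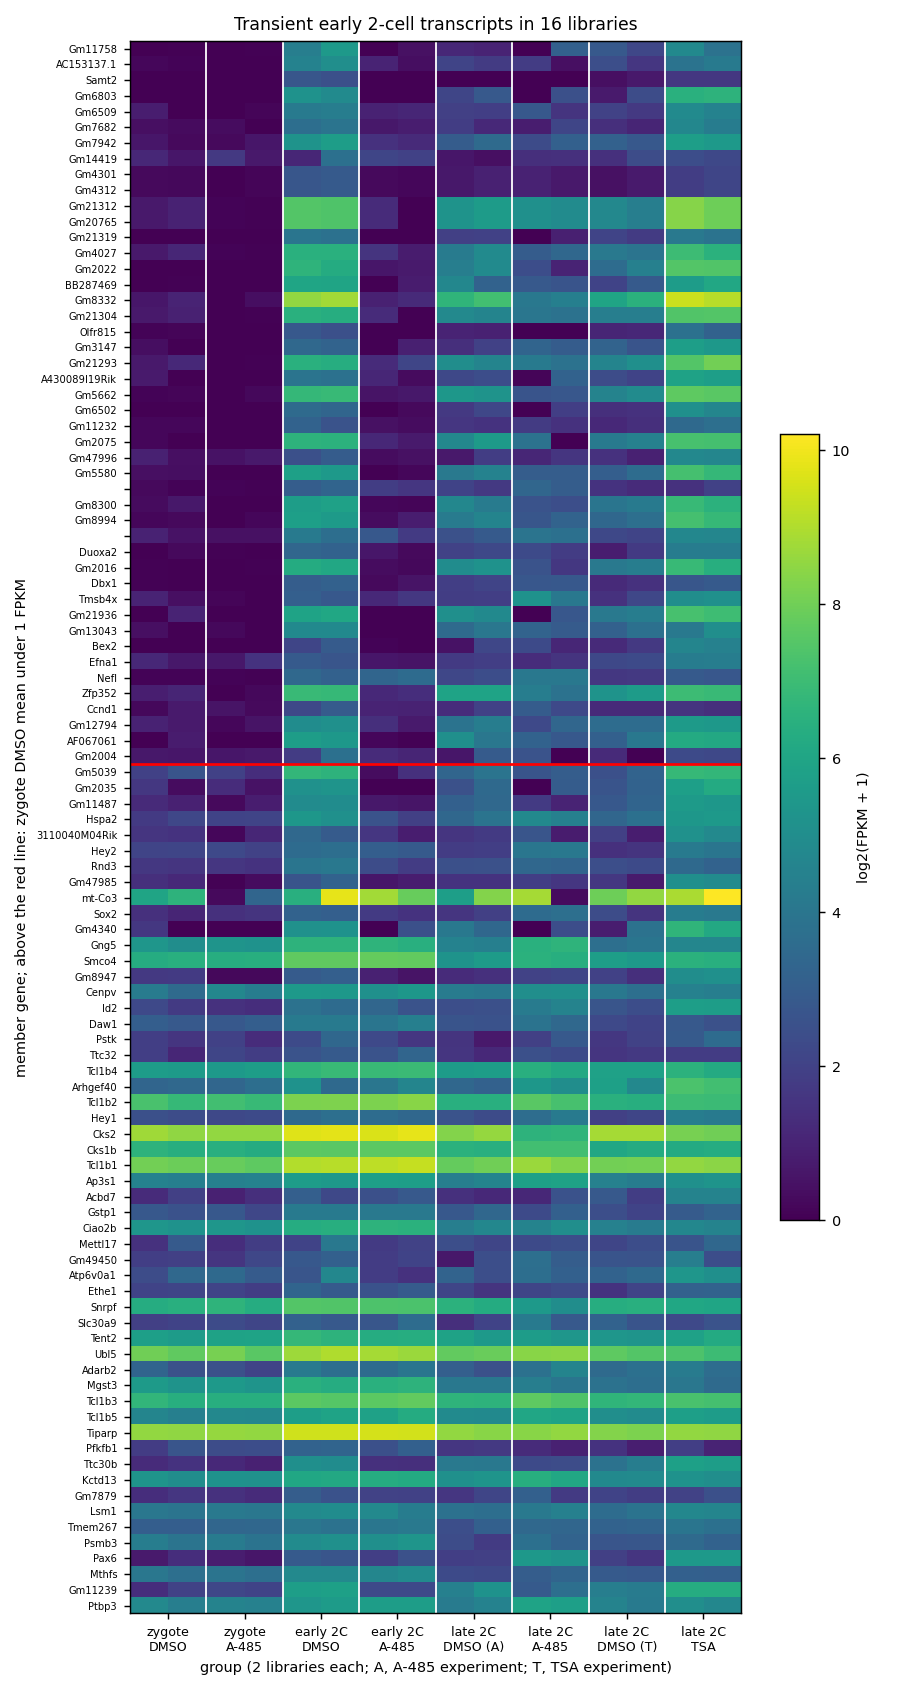
Level of each of the 100 members (rows, log2 of FPKM plus 1) in the 16 libraries (columns, grouped by stage and treatment). The 46 rows above the line had a zygote DMSO mean under 1 FPKM; 43 of them were called lower in early A-485 embryos, Nefl, Gm14419 and Gm2004 being the exceptions, and 40 were called higher with TSA.

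One side of the stage pattern could also be read in libraries outside the rule. In the late 2-cell DMSO libraries of the TSA experiment, 99 members had a lower mean than in early 2-cell DMSO, and for 92 both late libraries lay under both early ones, against 58.2% and 51.7% of the 6565 candidates. The early libraries were still those that chose the members for being high, so this is a description. Arhgef40 was the exception, with 35.6 and 10.2 FPKM early and 54.1 and 26.6 FPKM late. When the rule was run on replicate 1 alone, 73 of its 100 genes were members, and their median ratio in replicate 2 was 2.00, against 0.655 over all 6589 genes, with 88 above 1. Choosing on replicate 2 and reading replicate 1 gave 68, 1.94 and 83.

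In early 2-cell embryos with A-485, 43 of the 46 members with little zygote transcript were lower, while 42 of the 54 already present in the zygote were not called. A call here needed an adjusted p under 0.05, at least a 2-fold change and a mean of at least 1 FPKM in either group, by edgeR's quasi-likelihood test with Benjamini-Hochberg adjustment over all genes. Of the 100 members, 55 were lower and 0 higher, against 7.9% and 0.402% of all 20872 genes tested. At an unadjusted p under 0.05, edgeR had 2 members higher, and DESeq2 called 0 higher. The early DMSO libraries chose the members, which favours high DMSO values, so these counts describe. The median log2 fold change was -2.56 over members and 0.00 over all genes. Among the 46 members with little zygote transcript 43 were lower, with a median of -6.21 (-5.42 with undetected genes set at their lower bound), and among the other 54 there were 12, with a median of -0.12.

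The clustered copies on chromosome 12 were among the most affected. Gm8332 (chr12:88249666-88250100), a gene with 1 exon and a predicted pseudogene in RefSeq, had 377 and 445 FPKM in early DMSO libraries and 0.92 and 1.35 FPKM with A-485. The late DMSO libraries held 102 and 140 FPKM, the late A-485 libraries 16.1 and 20.1 FPKM, and the TSA libraries 665 and 550 FPKM against 61.2 and 90.7 FPKM. Its level was thus under 2 FPKM in A-485 early embryos and several-fold lower than DMSO after wash-off. With TSA its FPKM lay above the early DMSO libraries. Groups did not overlap in any of these comparisons. The log2 fold changes were -8.41 ± 0.22 (SE, adjusted p = 2.4e-10), -3.00 ± 0.30 (adjusted p = 7.9e-06) and 2.64 ± 0.17 (adjusted p = 5.5e-07).

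All 7 translation initiation factor 1A-like genes followed this course: each was lower with A-485 at both 2-cell stages and higher with TSA. Their median level was 0.446% of the early DMSO level with A-485 in early embryos, 27.6% in late DMSO embryos, 4.82% in late A-485 embryos and 175% with TSA. These are shares of FPKM, whose sum per library was greater in the late groups than in early DMSO. Gm5662, for example, read 111 and 118 FPKM in early DMSO, 0.45 and 0.57 FPKM with A-485, 5.21 and 5.79 FPKM in late A-485 embryos against 41.1 and 37.2 FPKM, and 205 and 193 FPKM with TSA against 23.0 and 29.0 FPKM. Gm2022, at 98.7 and 76.4 FPKM in early DMSO, was listed at 0 in all 4 zygote libraries. Both genes are also on lists of 2-cell-like cell markers.

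The 5 RNA and export factor-binding protein 2-like copies also were all lower in early A-485 embryos and all higher with TSA, but only Gm21293 and Gm21304 passed the test of A-485 in late embryos. Gm21312, whose Dux core is printed above, had 176 and 167 FPKM in early DMSO and 1.38 and 0 FPKM with A-485. In late embryos it read 33.6 and 29.8 FPKM with A-485 and 36.7 and 47.7 FPKM with DMSO, groups that did not overlap but differed by -0.73 ± 0.21 on the log2 scale. With TSA it reached 327 and 248 FPKM against 25.9 and 19.5 FPKM (log2 fold change 3.15 ± 0.12, edgeR adjusted p = 1.4e-08). Reads of these copies cannot be assigned with certainty, with a posterior SD of 36.9% of the count for Gm21312.

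Members at 0 in both early A-485 libraries give lower bounds, computed at 3 counts per library. Gm13043 (chr4:143511343-143517831), a pramel family member by its RefSeq product, fell from 27.4 and 27.8 FPKM, at least 374-fold. Gm21319 was at least 169-fold lower, Gm21936 at least 111-fold, the olfactory receptor gene Olfr815 at least 95-fold, Gm2035 at least 63.8-fold, Gm6803 at least 56.8-fold and Samt2 at least 27.4-fold. Gm6803 (chr12:88018337-88018771), also with 1 exon, was at 36.0 and 28.9 FPKM in early DMSO and 0 in every zygote library.

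Other members with the highest ratio moved in the same direction, with Gm5039 at 107.9 and 96.5 FPKM in early DMSO against 0.27 and 1.70 FPKM with A-485 (log2 fold change -6.91 ± 0.23). AC153137.1, Gm6509, Gm7682, Gm7942, Gm4301 and Gm4312 were also called lower and fell by 4.02 to 5.32 on the log2 scale. Of the 3 low-zygote members not called, Gm14419 read 1.16 and 12.8 FPKM in early DMSO and 3.41 and 2.92 FPKM with A-485, the former differing widely between its libraries. Nefl, a neurofilament gene, read 9.84 and 8.05 FPKM with DMSO and 9.11 and 10.8 FPKM with A-485, and the third was Gm2004.

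**Figure D2:**
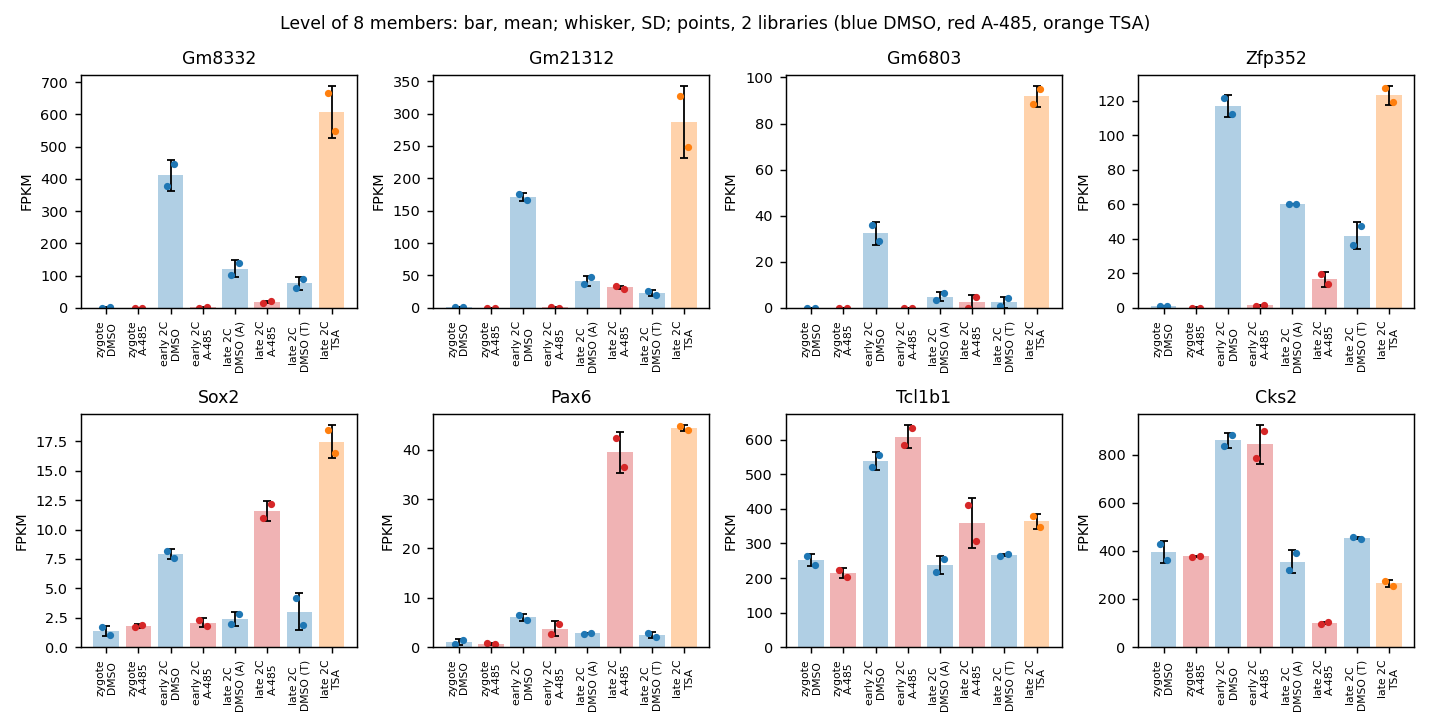
FPKM of Gm8332, Gm21312, Gm6803, Zfp352, Sox2, Pax6, Tcl1b1 and Cks2 in the 8 groups. Bars give the mean and whiskers the SD of the 2 libraries shown as points, each vertical axis starting at 0; the first 4 genes are near 0 in early A-485 embryos, whereas Tcl1b1 (586 and 633 FPKM) and Cks2 (786 and 900 FPKM) are as high there as with DMSO.

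The most abundant members that were not called in early A-485 embryos, picked as such, had a zygote transcript. Cks2, a partner of cyclin-dependent kinases, read 836 and 882 FPKM in early DMSO and 786 and 900 FPKM with A-485 (log2 fold change -0.01 ± 0.08). Tiparp, a mono-ADP-ribosyltransferase, read 707 and 706 FPKM against 756 and 732 FPKM, and Tcl1b1 520 and 557 FPKM against 586 and 633 FPKM. Ubl5, a ubiquitin-like splicing factor, Smco4, a small membrane protein, and Cks1b, the paralogue of Cks2, differed by -0.15 ± 0.09, 0.09 ± 0.08 and 0.04 ± 0.09. None of the 5 Tcl1b genes was called for A-485 or TSA against DMSO at any stage. In late embryos all 5 were higher without overlap, under the 2-fold limit. Their log2 fold changes were 0.43 to 0.92 with A-485 and 0.10 to 0.39 with TSA. Of all genes tested, 42.3% and 50.5% were higher without overlap. None of the 6 genes of RNA processing and translation support (Snrpf, Lsm1, Ptbp3, Tent2, Ubl5 and Pstk) was called in early embryos either. Of the 3 cell cycle genes, Ccnd1, cyclin D1, alone fell, from 3.69 and 6.53 FPKM to 1.01 and 0.95 FPKM (log2 fold change -2.62 ± 0.29).

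In zygotes the same drug left little to test, since only 56 members had a mean of 1 FPKM in either group. Gm8947 and mt-Co3 were called lower and 0 members higher, against 0.0657% and 0.00548% of 18258 genes tested. DESeq2 called 0 members higher. At an unadjusted edgeR p under 0.05, 17 members were lower and 0 higher, against 1073 of all genes tested in either direction. Of the 17, 10 had a zygote DMSO mean under 1 FPKM. The groups did not overlap downward for 28 members and upward for 6, against 14.7% and 17.7% of candidates. Gm8947 fell from 2.22 and 2.32 FPKM to 0.17 and 0.18 FPKM (log2 fold change -3.72 ± 0.47, edgeR adjusted p = 0.0066). The mitochondrial gene mt-Co3 differed many-fold between libraries of the same group, as with 85.0 and 922 FPKM in early DMSO, and its posterior SD was 21.2% of the count, so its call is uncertain. DESeq2 and a fit of all 16 libraries each kept the call of Gm8947 and lost that of mt-Co3.

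In late 2-cell embryos, collected after A-485 had been removed, members were called in both directions, at shares not far from those of all genes. Of the members, 23 were lower and 14 higher than in DMSO, against 16.8% and 10.5% of 22822 genes tested and 30.96% and 5.61% of the candidates. Scaling to mitochondrially encoded genes left 7 higher, with no change of sign among the members called. The late DMSO libraries also entered the rule. The 55 members that were lower in early A-485 embryos gave 21 lower and 4 higher, and the other 45 gave 2 lower and 10 higher. Those with the greatest deficit were Gm21936 (-3.57 ± 0.91), Gm2022 (-3.54 ± 0.73), Gm2016 (-3.39 ± 0.34), Gm11487 (-3.29 ± 0.46) and Gm5662 (-3.04 ± 0.21, log2 fold changes). Summed fibroblast markers moved with this treatment, as given above, and their part was not tested.

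The developmental regulators rose instead. Pax6, the homeodomain regulator of eye and brain (chr2:105668900-105697364), read 2.69 and 2.86 FPKM in late DMSO and 42.4 and 36.5 FPKM in late A-485 embryos (log2 fold change 3.75 ± 0.25, edgeR adjusted p = 2.5e-07). This was above its early DMSO level of 6.48 and 5.52 FPKM. Sox2, the pluripotency factor (chr3:34650405-34652461), fell in early A-485 embryos from 8.20 and 7.60 FPKM to 2.33 and 1.82 FPKM and was higher in late ones, with 11 and 12.2 FPKM against 1.96 and 2.83 FPKM. Its log2 fold changes were -1.91 ± 0.25 and 2.08 ± 0.31. Hey2, a transcriptional repressor of the Notch pathway, read 15.1 and 15.9 FPKM against 2.52 and 2.75 FPKM, and Id2, which binds and blocks basic helix-loop-helix factors, 18.02 and 23.0 FPKM against 4.46 and 4.57 FPKM. In all, 6 of the 8 regulators were higher, against 10.5% of all genes tested, while Dbx1 (0.78 ± 0.35) was among those not called. The actin-binding gene Tmsb4x reached 35.7 and 16.01 FPKM against 2.63 and 2.71 FPKM (3.13 ± 0.47).

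With TSA, most members were higher in late 2-cell embryos, at a median level near that of early 2-cell embryos, in 4 libraries that the rule did not use. By edgeR's quasi-likelihood test 60 members were higher and 1 lower, against 13.8% and 13.9% of 23429 genes tested. The groups did not overlap upward for 88 members and downward for 4, against 50.5% and 22.6% of genes tested and 45.03% and 37.9% of candidates. The median log2 fold change was 1.79 over members and 0.13 over all genes. The median level was 31.8 FPKM with TSA, 6.83 FPKM in its DMSO group and 28.2 FPKM in early 2-cell DMSO embryos, and members took 0.817 to 0.827% of counts with TSA, 0.338 to 0.343% in the DMSO group and 0.822 to 0.879% in early DMSO. The mean FPKM with TSA was above that of early DMSO for 56 members. Single members spread widely around this, from 15.7 to 740% of their early DMSO level. The median share was 162% for the 46 low-zygote members and 78.2% for the other 54. Summed over all genes, FPKM was itself 1.72e+06 and 1.94e+06 with TSA against 1.28e+06 and 1.27e+06 in early DMSO. This offset was not removed from the 56, from these shares or from the median levels. Erythroid and fibroblast markers rose with TSA too, and their part was not tested.

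**Figure D3:**
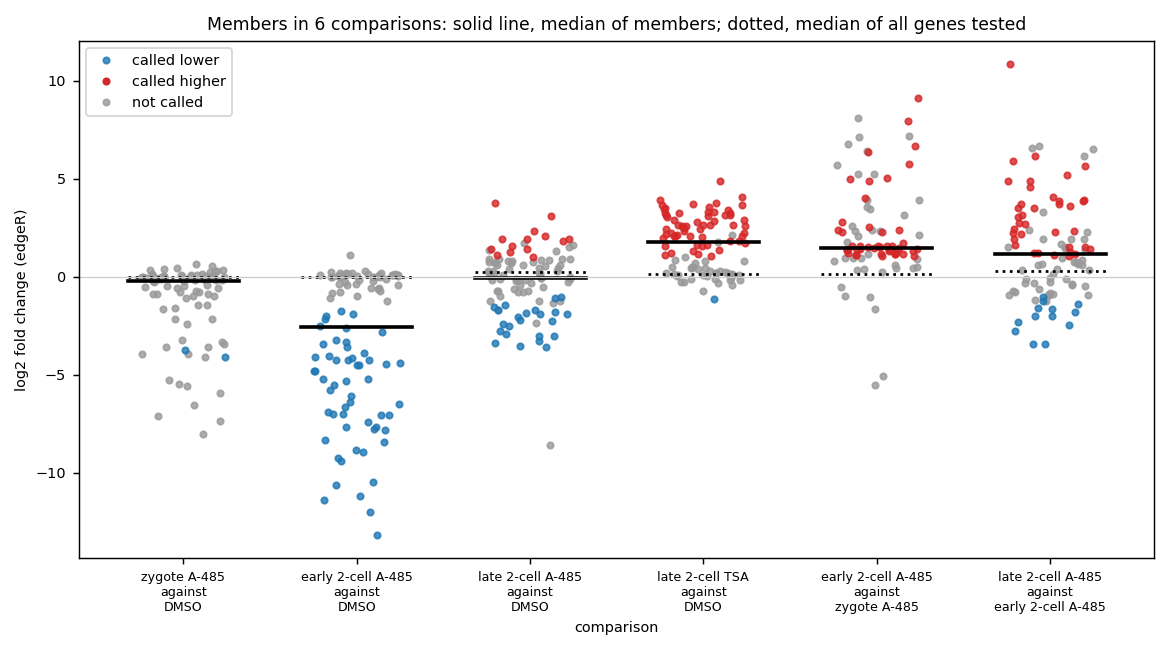
Log2 fold change of each tested member (points) in the 6 comparisons, coloured by its call, on an axis centred at 0. Members lie mostly at or under 0 for early A-485 against DMSO (median -2.56) and mostly above 0 for TSA against DMSO (median 1.79).

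The genes that A-485 lowered were for the most part those that TSA raised. Of the 55 members lower in early A-485 embryos, 50 were higher with TSA, and of the other 45, 10 were higher and 1 lower. The 46 low-zygote members gave 40 higher and 0 lower (median log2 fold change 2.56), and the other 54 gave 20 higher and 1 lower (median 0.49). At an unadjusted edgeR p under 0.05 the 46 gave 43 higher and 0 lower. The early A-485 and TSA comparisons share no library. Over all 3 comparisons with DMSO in 2-cell embryos, 21 members were lower, lower and higher in that order, 26 were lower only in early embryos and higher with TSA, and 28 were not called in any.

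**Figure D4:**
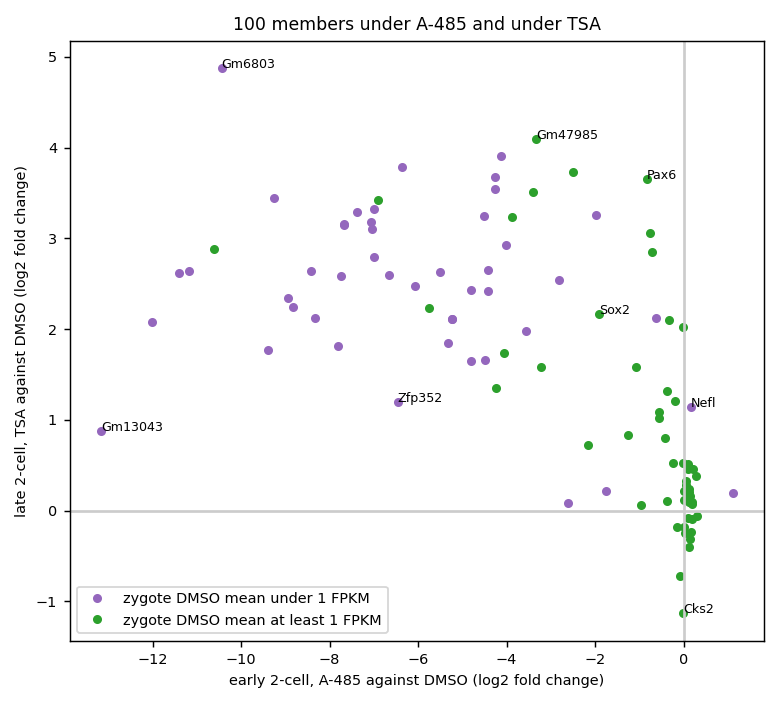
Log2 fold change of each member for A-485 against DMSO in early 2-cell embryos (horizontal axis) and for TSA against DMSO in late 2-cell embryos (vertical axis), each point 1 member. The 50 members lower with A-485 and higher with TSA fill the upper left.

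Gene copies with 1 to 3 exons made up the 5 greatest TSA increases among members. Gm6803 read 0.67 and 4.16 FPKM with DMSO and 88.5 and 95.04 FPKM with TSA (log2 fold change 4.88 ± 0.50, edgeR adjusted p = 1.6e-05), the DMSO libraries differing several-fold from each other. Neighbouring genes on chromosome 1 followed: Gm47985 read 2.13 and 0.68 FPKM against 32.6 and 29.8 FPKM (4.10 ± 0.36), Gm47996 rose by 3.91 ± 0.31 and 3110040M04Rik by 3.73 ± 0.43. Gm6502 on chromosome 5 read 1.59 and 1.71 FPKM against 34.0 and 24.4 FPKM (3.79 ± 0.22). These values were above each gene's early DMSO level in both TSA libraries. Reads of Gm47996, 3110040M04Rik and Gm6502 are partly shared with copies.

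Zfp352 had 122 and 112 FPKM in early DMSO, 36.4 and 47.4 FPKM in late DMSO of the TSA experiment and 127 and 119 FPKM with TSA (log2 fold change 1.20 ± 0.11, edgeR adjusted p = 7.7e-06). With A-485 it read 1.28 and 1.52 FPKM in early embryos, and 19.3 and 13.5 FPKM in late ones against 60.2 and 59.99 FPKM. In FPKM its TSA libraries were thus close to its early DMSO libraries, and its late A-485 libraries lay under both DMSO groups of late embryos.

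Of the developmental regulators 7 of 8 were higher with TSA, against 13.8% of all genes tested. Pax6 read 44.8 and 44.0 FPKM against 2.81 and 1.98 FPKM (3.65 ± 0.15), Id2 51.4 and 50.1 FPKM against 5.42 and 4.26 FPKM, and Hey1 18.9 and 17.5 FPKM against 2.85 and 3.40 FPKM. Pax6, Hey2, Id2, Hey1 and Sox2 were thus higher in late embryos after either drug, which were separate experiments with separate DMSO libraries.

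Cks2 was the only member lower with TSA, at 276 and 255 FPKM against 457 and 451 FPKM (log2 fold change -1.13 ± 0.07, edgeR adjusted p = 4.7e-07), a call lost when libraries were scaled to total counts (-0.77). It was also lower in late A-485 embryos, at 96.4 and 102.9 FPKM against 322 and 390 FPKM (-2.07 ± 0.14), while its close relative Cks1b was called in neither. Snrpf, a core spliceosomal protein, was lower in late A-485 embryos (-1.43 ± 0.22) and under the 2-fold limit with TSA (-0.72 ± 0.11).

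Whether the members rise at all when CBP and p300 are inhibited was read between the A-485 groups, which the rule did not use. From zygote to early 2-cell embryo 45 members were higher and 0 lower with A-485, against 6.85% and 15.6% of 19858 genes tested by edgeR, with a median log2 fold change of 1.50 over members (1.49 with bounds) and 0.14 over all genes. At an unadjusted p under 0.05 edgeR had 2 lower, and DESeq2 called 0 lower. This direction depends on the scaling. When libraries were scaled to mitochondrially encoded genes, whose share of counts rises between these stages, 7 members were higher, 8 were lower, 24 of the 45 changed sign, and the median over all genes was -1.40.

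On the main scale, 35 of the 54 members already present in the zygote rose and 10 of the other 46. Only 14 of those 46 reached the mean of 1 FPKM that a call needs, against 50 of the 54, and their median log2 fold change over the 32 tested was 3.92 (2.65 with bounds) against 1.31. All 5 Tcl1b genes rose, by 1.50 to 1.75 on the log2 scale, and Tcl1b1 went from 225 and 203 FPKM to 586 and 633 FPKM. Tcl1b2 and Tcl1b3 turned sign under mitochondrial scaling, as did Hey1, Hey2, Cks2, Cks1b, Tiparp, Ubl5 and Ptbp3. Nefl went from 0.06 and 0.03 FPKM to 9.11 and 10.8 FPKM (7.96 ± 0.29, edgeR adjusted p = 2.7e-10). Gm21293 was called higher as well, from 0 and 0.04 FPKM to 1.38 and 3.41 FPKM, at least 22.1-fold. Gm4340 was listed at 0 and 4.67 FPKM in the early A-485 libraries and 0 in both zygote ones, so its call, at least 28-fold, rests on 1 library. The mt-Co3 call has the limit given above.

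After wash-off, the order turned around. Between early and late A-485 embryos 37 members were higher and 13 lower, against 12.8% and 7.15% of 22854 genes tested, although by the rule all of them were lower in late than in early DMSO embryos. Scaling to mitochondrially encoded genes gave 25 higher and 23 lower. The 46 low-zygote members gave 28 higher and 0 lower, and the other 54 gave 9 higher and 13 lower. At an unadjusted edgeR p under 0.05 the 46 gave 33 higher and 0 lower. In early A-485 embryos, however, 33 of the 46 had a mean under 1 FPKM (median 0.505 FPKM). They had little room to fall and could hardly be called lower, so the 0 is no result. Gm13043 went from 0 in both early libraries to 8.63 and 6.63 FPKM, at least 91.4-fold, and AF067061 from 0.13 and 0.04 FPKM to 8.22 and 6.04 FPKM, at least 33.7-fold. Gm5580 (6.17 ± 0.75) and Gm8300 (5.18 ± 0.61) rose likewise, and Bex2 at least 11.2-fold. These levels stayed under those of early DMSO, at 27.4 and 27.8 FPKM for Gm13043 and 51.1 and 42.4 FPKM for AF067061.

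All 13 members that fell had a zygote DMSO mean of at least 1 FPKM, most low-zygote members starting too low for a fall to be called. Cks2 dropped from 786 and 900 FPKM to 96.4 and 102.9 FPKM (log2 fold change -3.43 ± 0.11, edgeR adjusted p = 1.7e-15). Pfkfb1, an enzyme that controls glycolysis through fructose 2,6-bisphosphate, changed by -3.41 ± 0.52, the glutathione transferases Mgst3 and Gstp1 by -2.75 ± 0.16 and -2.29 ± 0.51, and Snrpf by -2.45 ± 0.15. Mgst3 read 87.6 and 95.3 FPKM in early A-485 embryos and 19.5 and 14.6 FPKM in late ones, close to the 16.02 and 16.1 FPKM of late DMSO embryos.

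Of the 558 genes that the study lists as minor activation genes of the early 2-cell embryo, 41 were members, or 7.35% of that list and 41% of the members, against 3.98% of the candidates, and 40 of these were lower in early A-485 embryos. The other 59 were not on it, and of these 15 were lower. Its genes are those that changed in early 2-cell embryos with DRB, a transcription inhibitor, against DMSO, and whether its DMSO libraries are those used here is not given in the sources used here, so it is not taken as independent evidence. Of the study's 30 minor activation genes of the zygote 4 were members (13.3%), Gm21293, A430089I19Rik, Gm47985 and Gm4340. A list of 2-cell-like cell markers, of which 42 were measured, gave 37 lower in early A-485 embryos, 36 lower in late ones, and 22 higher and 5 lower with TSA. The shares over all genes tested were, in that order, 7.9%, 16.8%, 13.8% and 13.9%. The 8 members on that list (Zfp352, Gm4340, Gm8300, Gm5662, Gm2022, Gm12794, AF067061 and BB287469) were all lower in early A-485 embryos and all higher with TSA. Zfp352 was the only member among C2H2 zinc finger genes and Kctd13 the only one among ubiquitin pathway genes, and none was an immediate-early, p53 target, interferon-stimulated, histone acetyltransferase or deacetylase gene.

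ATAC-seq gave a second readout of these genes, without a test because each list pools its replicates. A peak within 1 kb of an annotated start site was present for 31 members in early DMSO embryos and 37 in early A-485 embryos, or 31% and 37% against 61.3% and 70.1% of expressed coding genes. In late 1-cell embryos the counts were 24 and 16, against 47.6% and 47.1%. Of the 46 low-zygote members 8 had an early DMSO peak. How the authors' alignment treated reads shared by copies was not tested, and Gm8332 and Gm21312, at over 100 FPKM, had no peak in any list.

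Of the 100 members, 23 had a peak in both early lists, 14 with A-485 alone and 55 in neither, and 8 with DMSO alone: Gm5039, Gm21319, Gm5662, Rnd3, Ap3s1, Dbx1, Zfp352 and AF067061. Over coding genes 86.4% of DMSO promoter peaks had a counterpart with A-485. Zfp352, at the tandem repeat printed above, had a fold enrichment of 16.9 with DMSO, Gm5662 of 17.96 and AF067061 of 13.2, each with no called peak with A-485. Cks2 had peaks in all 4 lists, with fold enrichments of 7.03 and 9.81 in early DMSO and A-485 embryos, and Pax6 had a peak, of 5.95, with A-485 alone. A missing peak may be one under the caller's threshold, and the lists held different numbers of peaks, 42382 and 23473 for early DMSO and A-485.

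**Figure D5:**
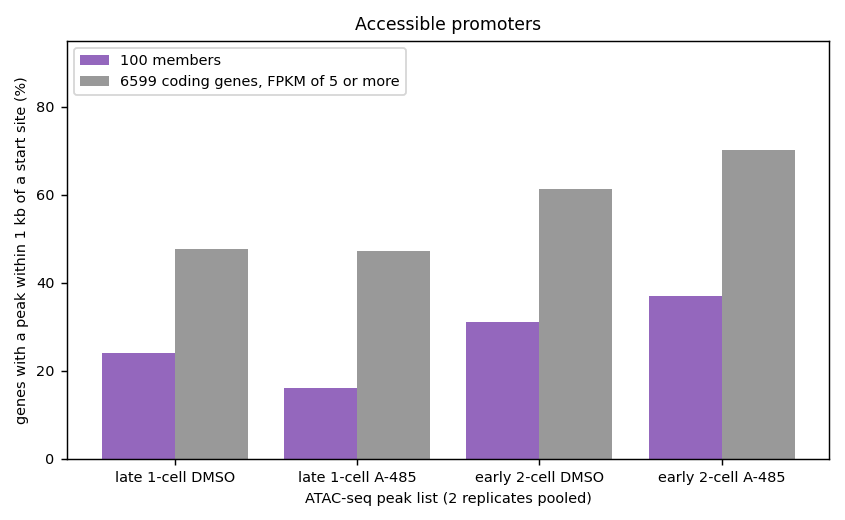
Percentage of the 100 members and of the 6599 expressed coding genes with an ATAC-seq peak within 1 kb of a start site (bars, axis from 0) in each of the 4 pooled peak lists. Members are at 16 to 37% and coding genes at 47.1 to 70.1%.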

How the data were processed

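Per the labels and the study's methods, total RNA reads were trimmed with Trimmomatic 0.39 and aligned to GRCm38 with STAR 2.7.8a, and the authors deposited RSEM 1.3.1 expected counts, FPKM values and a posterior standard deviation of each count, which is in the file's own count unit. The authors also deposited pooled ATAC-seq peaks, with a fold (ratio) enrichment and −log10 p- and q-values as the peak caller gave them, made with the ENCODE ATAC-seq pipeline as peaks reproducible over both replicates. The build of these peaks is not given in that description, and the submitters' processing notes list GRCm38 and mm10, which name the same assembly. CUT&RUN samples were not analysed here, a few genes are counted but not reported by name, and the authors' own fold changes and p-values were not used.

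Samples were grouped by their labels. The members and all gene lists and role groups were chosen with earlier results of these data known. FPKM gave levels. Expected counts were rounded and tested with edgeR 4.0.16 (R 4.3.3): TMM scaling, genes with at least 10 counts over the 4 libraries of a comparison, the quasi-likelihood test and Benjamini-Hochberg adjustment over all genes, with standard errors of the log2 fold change from the same fit. Folds against a group under 3 counts per library were taken at that floor and are bounds, which, like all depth limits, cover counting error only. Replicates differed beyond sampling noise in every group (chi-square per degree of freedom 9.44 to 19.6).

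Genes named were the 12 with the highest ratio, the 5 called with the greatest change in each direction and comparison, the 8 most abundant not called lower by A-485 in early embryos, the 3 on each side of the limit, members of the gene lists (2-cell-like, immediate-early, p53, interferon, zinc finger, ubiquitin, histone acetyltransferase and deacetylase, and cell type markers) and the 6 most abundant with a peak and a RefSeq promoter. Of those 6 promoters, the 4 that run into an annotated exon are not printed. Further genes were named after their values were seen, as members of a role group or as counterexamples. Figures were drawn with matplotlib 3.10.9. Alternatives covered DESeq2 1.42.0, scaling, filters, the replicate block and the choice of members.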

Additional observations from a re-analysis of the deposited data

Results flagged for a closer look

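In 4 members, 3 of them reported here by name, A-485 against DMSO went in opposite directions at the 2 stages. They were lower in early 2-cell embryos and higher in late ones, collected after wash-off, with no overlap between groups and a call at both. The late and early log2 fold changes were 1.60 and -4.41 for Gm3147, 2.08 and -1.91 for Sox2, and 3.13 and -1.97 for Tmsb4x, with 2 libraries per group. The difference between stages was not tested, and the DMSO libraries of both comparisons took part in choosing the members.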

How the results depend on the processing

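Under the alternative settings, 183 values of the summary results stayed close to the value reported (counts within 1.5 times) and 23 did not. Scaling to mitochondrially encoded genes moved the most: members higher between the zygote and early 2-cell A-485 groups went from 45 to 7 and lower from 0 to 8, members higher in late A-485 embryos against DMSO from 14 to 7 (lower from 23 to 31), and members lower from early to late A-485 embryos from 13 to 23 (higher from 37 to 25). This scaling took the median log2 fold change of all genes from 0.14 to -1.40, from 0.28 to -0.35 and from 0.31 to -0.23 in those comparisons, and the cause was not tested. Scaling to total counts took them to -0.05, 0.47 and 0.59, and for TSA from 0.13 to 0.48, with 0 in place of 1 member lower with TSA and 1 in place of 0 lower between the zygote and early 2-cell A-485 groups. For that last count, no filter on low counts gave 1, all 16 libraries in 1 fit 2, and members chosen with the late 2-cell DMSO libraries of the TSA experiment 2. With these late libraries, 1 member was lower in zygotes, 0 with TSA and 5 from early to late A-485 embryos. With a minimum of 10 FPKM these were 1, 2 and 26. In zygotes (2 members lower) there were 4 with no filter on low counts and 1 among members whose posterior SD was at most 10% of the count. Choosing on replicate 2 gave a median ratio of 1.94 in replicate 1, against 2.00.

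Leaving out each library in turn gave 2 to 3 members lower in zygotes, 55 to 56 lower and 0 to 1 higher in early A-485 embryos, 19 to 28 lower and 12 to 17 higher in late ones, 57 to 62 higher with TSA, 44 to 45 higher and 0 to 1 lower between the zygote and early 2-cell A-485 groups, and 30 to 38 higher and 12 to 17 lower from early to late A-485 embryos. The lone library left in a group was assumed to vary like the others. With the replicate number as a block, zygotes had 4 members lower, and the other counts stayed within 1.5 times. Same-numbered libraries deviated together with r from -0.03 to 0.10, which gives no sign of a pairing by number but, with 2 libraries per group, cannot exclude one. Further choices were added after the data were seen: members chosen on FPKM scaled by TMM shared 91 of 100 and had 51 lower in early A-485 embryos and 58 higher with TSA, and identical copies counted once left 99 members. For the 5 called members with the greatest change in each direction and comparison, 373 values kept their direction and call, 6 lost the call and 0 reversed. Other named genes were not in that count. Of the 45 members called between the zygote and early 2-cell A-485 groups, 24 changed sign with mitochondrial scaling. With 2 libraries per group and 13206163 to 32585987 counts, low transcripts in zygotes limit what a fold change can show.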
